A study of Homo sapiens with 3 samples.

Results

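The genes described here are the protein-coding members of the HOX clusters, chosen as the gene symbols made of HOXA, HOXB, HOXC or HOXD and a number. The human genome holds 39 of them, and 34 were listed in at least 1 of 3 RNA-seq libraries, out of 18856 genes listed in all. Each library was made from about 10 pg of polyA+ mRNA diluted from a bulk preparation. HBE is a human bronchial epithelial cell line and A549 is a lung adenocarcinoma cell line. The labels name no treatment, and each line stands for its tissue only as 1 cultured line. LIEA, the low-input equal-amplification method, fragments the mRNA, ligates adapters, reverse-transcribes it and amplifies the cDNA library by PCR. Each library molecule is then amplified on its own bead for Ion Torrent sequencing. Smart-seq2 primes cDNA at the poly(A) tail, amplifies it before library construction and was read on an Illumina sequencer. The authors give the same number of PCR cycles for the LIEA library and the Smart-seq2 cDNA. A549 and HBE were each read by LIEA, and HBE also by Smart-seq2, from 3 libraries in all, 1 for each condition. There are therefore no replicates, no difference below has a replicate check, and no p-value is given.

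HOX proteins are homeodomain transcription factors that give cells a position along the body axis. Their genes lie side by side in clusters, all read in one direction, and are numbered by paralog group, with group 1 at the 3′ end and group 13 at the 5′ end. Low-numbered genes act in the head and neck, middle ones in the trunk and lung, and high-numbered ones in the tail, limbs and genital tract. Adult epithelia and tumour lines keep part of this code. On GRCh37 the HOXA cluster spans chr7:27132612-27239710 on the minus strand and holds 11 genes. The HOXB cluster spans chr17:46605888-46806112 on the minus strand, with 10 genes. The HOXC cluster spans chr12:54332615-54449814 and the HOXD cluster chr2:176957449-177055635, both on the plus strand with 9 genes each.

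Levels are given as rpkM, which is reads per kilobase of transcript and per 1000000 mapped reads, and so can be compared between genes. Whole reads were recovered from the deposited values, as the steps of low values allow. The totals were 4154060 mapped reads for A549 LIEA, 4605855 for HBE LIEA and 9845150 for HBE Smart-seq2. Intervals are exact 95% intervals of the read count. They cover counting error only, since PCR reads without molecular identifiers are not independent molecules. A gene that is not listed had no read, which allows up to 3 reads, or 0.722, 0.651 and 0.305 reads per 1000000 in the 3 libraries in the same order.

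Basal and A549 markers went with the labels, while epithelial markers were mixed. All 4 basal cell markers (KRT5, KRT14, KRT17 and TP63) were more than 4-fold lower in A549 LIEA than in HBE LIEA, with KRT5 at 18 against 5854 reads. Of 5 epithelial markers, KRT8 and KRT18 were 7.82-fold and 5.79-fold higher in A549 LIEA and EPCAM 7.84-fold lower. CDH1 and KRT19 stayed within 4-fold. Of 5 A549 markers sought, 4 were listed (AKR1B10, AKR1C1, AKR1C2 and ALDH1A1), and these were more than 4-fold higher in A549. Over all genes with at least 10 reads in either library, 11.0% were past 4-fold higher in A549 and 7.50% higher in HBE. The fifth A549 marker was listed in no library and so checked nothing. Of 5 lung lineage markers, SFTPC was in no library and NKX2-1 had 0 reads in A549 LIEA, 1 in HBE LIEA and 4 in Smart-seq2. SFTPB had 20, 21 and 49 reads, FOXA1 had 213, 372 and 119, and FOXA2 had 267 reads in A549 LIEA and none in HBE. Of 10 markers of fibroblasts, endothelium and blood, 6 were listed in A549 LIEA and 5 in each HBE library, with summed levels of 23, 54 and 48.1 rpkM. CD68 alone gave 18.4, 35.3 and 35.7 rpkM of these sums. COL1A1 had 93, 175 and 85 reads in A549 LIEA, HBE LIEA and Smart-seq2, PECAM1 had 9, 20 and 91, and VWF had 0, 18 and 0. The endothelial cadherin CDH5 had 0 reads in A549 LIEA, 206 in HBE LIEA and 360 in Smart-seq2. COL3A1, LUM and PTPRC had at most 3 reads in any library, and DCN and CD3E were listed in none. The part of these markers in the HOX values was not tested.

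In total 32 of the 39 genes were listed in A549 LIEA, 24 in HBE LIEA and 21 in HBE Smart-seq2. With the criterion of at least 10 reads for a quantified gene, 21, 15 and 13 were quantified. Under the smallest whole reads that the deposited values allow, these counts were 18, 14 and 13. At a minimum of 20 reads they were 18, 10 and 10. The counts and shares at 10 or more reads below use the most probable reads. Of the 18856 genes listed in at least 1 library, 66.8%, 65.2% and 68.5% were quantified, and 16711, 16073 and 16498 were listed. The like base for the HOX counts is the 34 HOX genes listed in at least 1 library, not all 39. In all, 8 genes from the HOXA, HOXB and HOXC clusters were quantified in all 3 libraries, among them HOXA3, HOXA10, HOXB7, HOXC9, HOXC10, HOXC11 and HOXC13. HOXB1, HOXC12, HOXD4, HOXD11 and HOXD12 were listed in none. A549 LIEA and HBE LIEA shared 22 listed genes, which is 68.8% of the former and 91.7% of the latter, beside 88.7% and 92.3% over all genes listed. At 10 or more reads they shared 10, or 47.6% and 66.7%, beside 89.5% and 91.6% over all genes. HBE LIEA and HBE Smart-seq2 shared 20 listed HOX genes, which is 83.3% and 95.2%, beside 93.1% and 90.7% over all genes. At 10 or more reads they shared 12, or 80% and 92.3%, beside 95.2% and 90.6%.

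**Figure D1:**
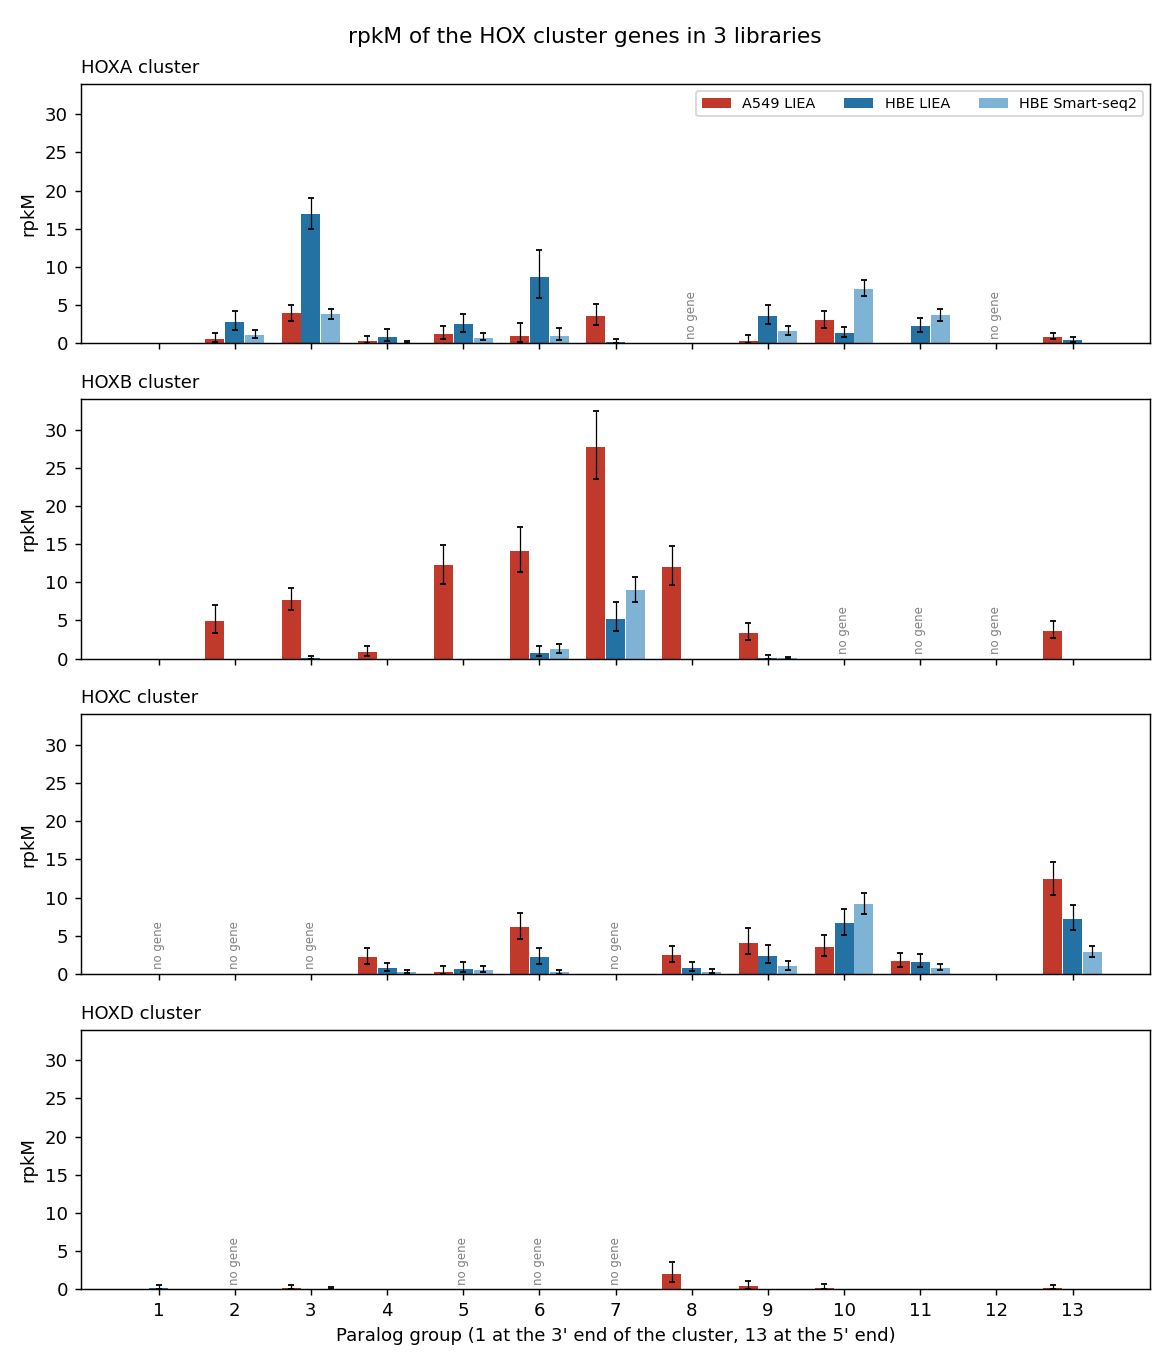
rpkM of the HOX genes reported here (vertical axis) by cluster and paralog group (horizontal axis), with a bar per library and exact 95% counting intervals; a missing bar stands for a gene that was not listed or is not reported here. A549 LIEA stands highest in the HOXB cluster, up to 27.7 rpkM at HOXB7, and HBE LIEA in the HOXA cluster, up to 16.9 rpkM at HOXA3.

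The clusters took different shares of the HOX signal in both lines. Summed over its genes, HOXA stood at 17.2 rpkM (14.6 to 20.4) in A549 LIEA, 44.8 (40.3 to 49.7) in HBE LIEA and 20 (18.2 to 22) in HBE Smart-seq2. HOXB stood at 86.5 rpkM (79.8 to 93.6) in A549 LIEA, 6.16 (4.41 to 8.39) in HBE LIEA and 10.2 (8.56 to 12) in Smart-seq2. HOXC stood at 32.7 rpkM (29 to 36.8), 22.3 (19.3 to 25.5) and 15.1 (13.4 to 16.9) in the same order. Thus HOXB carried most of the HOX rpkM of A549, 62.2%, and HOXA most of that of HBE LIEA, 61.1%. In Smart-seq2 HOXA was also the leading cluster, with 44.1%, followed by HOXC with 33.3%. HOXD reached 2.68 rpkM (1.51 to 4.44) in A549 LIEA and rested on 1 read in each HBE library. HOXD8 gave 73% of the A549 sum. Its most probable number is 10 reads and the smallest whole number is 1, and the interval takes the 10 reads as given. All HOX genes together had 1168 reads in A549 LIEA, 752 in HBE LIEA and 939 in Smart-seq2, a small part of each library. In RNA from a culture, fewer cells that use a gene and less RNA per cell cannot be told apart.

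**Figure D2:**
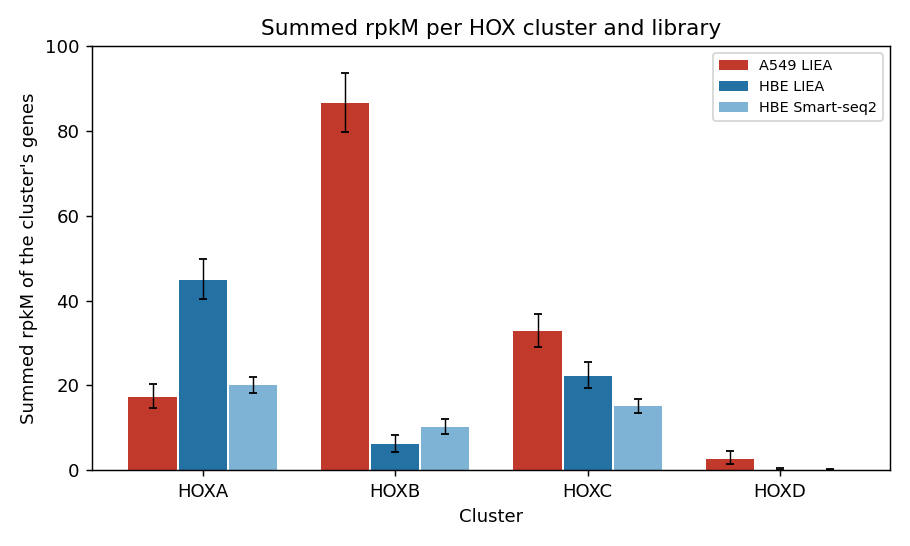
Summed rpkM of each cluster (vertical axis) in the 3 libraries, with 95% counting intervals. The intervals take the most probable reads of each gene as given. The HOXB bar of A549 LIEA, 86.5 rpkM, is the highest, against 6.16 and 10.2 rpkM in HBE.

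Summed over the clusters, paralog groups 4 to 8 held 61.6% of the HOX rpkM of A549 LIEA, against 30.7% in HBE LIEA and 29.1% in Smart-seq2. In A549 this came mostly from HOXB5, HOXB6, HOXB7 and HOXB8, at 12.2, 14.1, 27.7 and 12 of 85.7 rpkM. Within HOXA and HOXC of A549 the highest genes were HOXA3 and HOXC13, outside these groups. In HBE LIEA the sums of these ranges were similar, with 34.3% in groups 1 to 3 and 35% in groups 9 to 13. The ranges hold 8, 15 and 16 genes, and HOXA3 alone gave 67.1% of the sum of groups 1 to 3. Smart-seq2 of the same line gave 12.9% to groups 1 to 3 and 58% to groups 9 to 13. The highest single genes were HOXB7 in A549 LIEA (19.9% of the HOX rpkM), HOXA3 in HBE LIEA (23%) and HOXC10 in Smart-seq2 (20.3%).

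The comparison of A549 with HBE by LIEA asks how the lines differ under the same method. It used the ratio of read shares. A gene was tested with at least 10 reads in either library and called past 4-fold. For calls, medians and lower bounds, a library under 3 reads was set to 3 reads, while the ratio printed for a gene with 1 or more reads in both libraries, with its interval, uses the reads as they are. Of 26 HOX genes tested, 9 were called higher in A549, while 11.0% of all 13619 genes tested were. In the other direction 5 were called higher in HBE, against 7.50% of all genes. The 9 were HOXA7 and 8 HOXB genes (HOXB2, HOXB3, HOXB5, HOXB6, HOXB7, HOXB8, HOXB9 and HOXB13), and the 5 were all from HOXA (HOXA2, HOXA3, HOXA6, HOXA9 and HOXA11). The median log2 ratio of A549 to HBE was 4.13 over 8 HOXB genes, -1.61 over 10 HOXA genes and 0.77 over 7 HOXC genes, beside -0.13 over all genes tested. At 2-fold, 14 HOX genes were higher in A549 (20.4% of all genes) and 6 higher in HBE (20.9%). With the whole counting interval past 4-fold, 8 were higher in A549 (6.76% of all genes), which leaves out HOXB7, and HOXA11 alone was higher in HBE (4.59%). Among the 8, HOXB2, HOXB6 and HOXB13 enter with reads recovered only up to a whole factor.

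**Figure D3:**
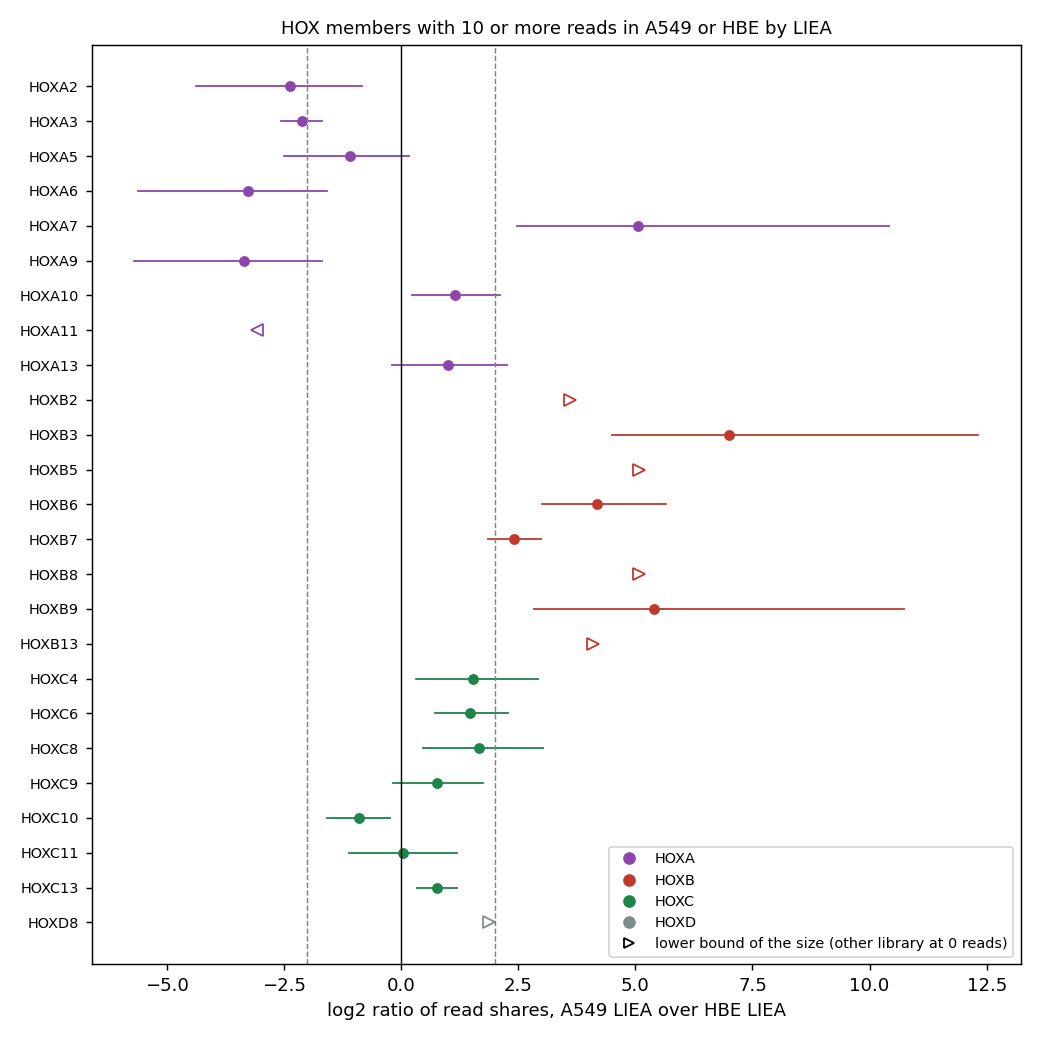
log2 ratio of read shares, A549 LIEA over HBE LIEA (horizontal axis), for the tested HOX genes reported here, with exact 95% counting intervals; open triangles are lower bounds of the size where the other library had 0 reads, and dashed lines mark 4-fold. HOXB genes lie to the right and most HOXA genes to the left, with HOXA7 at 5.06.

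HOXB7, a trunk gene that is often high in carcinoma lines, was the highest HOX gene of A549. It stood at 27.7 rpkM (157 reads, log2 rpkM 4.79) in A549 LIEA, 5.25 (33 reads) in HBE LIEA and 8.92 (120 reads) in Smart-seq2. A549 was 5.28-fold above HBE by LIEA, with a log2 ratio of 2.40 (1.85 to 2.99), so that the interval reached below 4-fold. It was the only HOXB gene at or above 10 reads in HBE LIEA.

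HOXB6 had 14.1 rpkM (98 reads) in A549 LIEA, 0.777 (6 reads) in HBE LIEA and 1.21 (20 reads) in Smart-seq2, a log2 ratio of A549 to HBE of 4.18 (3.01 to 5.66). Its smallest whole reads were 49, 3 and 10, with the same rpkM. HOXB5, which acts in lung branching, had 12.2 rpkM (92 reads) in A549 LIEA and was not listed in either HBE library, so it was at least 34-fold higher in A549. HOXB8, known for its role in myeloid progenitors, likewise had 12 rpkM (91 reads) against none, at least 33.6-fold higher. These middle genes of the cluster were the next highest HOX genes of A549 beside HOXC13.

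HOXB3, a hindbrain and pharyngeal gene, had 7.72 rpkM (116 reads) in A549 LIEA, 0.06 (1 read) in HBE LIEA and none in Smart-seq2. Its log2 ratio was 7.01 (4.50 to 12.32). HOXB9 had 3.39 rpkM (38 reads) against 1 read in each HBE library, with a log2 ratio of 5.40 (2.83 to 10.74). Hence both genes were near the detection limit in HBE whichever method was used.

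HOXB2, which specifies a hindbrain segment, stood at 4.96 rpkM in A549 LIEA and was unlisted in HBE. HOXB13, the prostate and tail gene at the far 5′ end, stood at 3.65 rpkM and was unlisted in HBE too. Their reads were recovered only up to a whole factor. HOXB2 had 33 reads (at least 12.2-fold higher), or 11 (at least 4.07-fold) as the smallest whole number. For HOXB13 the most probable number was 46 reads (at least 17-fold higher), but that factor had a probability of only 26% and the smallest whole number is 1 read. The call of HOXB13 therefore rests on its recovered length, whereas its rpkM does not. HOXB4, known for expanding blood stem cells, had 7 reads (0.829 rpkM) in A549 LIEA alone and was below the read minimum.

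Within HOXA, HOXA7 went against its neighbours. It had 3.58 rpkM (30 reads) in A549 LIEA, 0.108 (1 read) in HBE LIEA and none in Smart-seq2. The log2 ratio was 5.06 (2.47 to 10.41). HOXA6, next to it on the 3′ side, had 0.9 rpkM (3 reads) in A549 LIEA, 8.66 (32 reads) in HBE LIEA and 1.01 (8 reads) in Smart-seq2, with a log2 ratio of -3.27 (-5.62 to -1.59). HOXA9, its neighbour on the 5′ side and a regulator of blood stem cells, had 0.351 rpkM (3 reads), 3.59 (34 reads) and 1.58 (32 reads), with a log2 ratio of -3.35 (-5.70 to -1.68). Exons of HOXA7 are covered over 74.8% of their bases by the antisense gene HOXA-AS3. HOXA-AS3 had 1 read in A549 LIEA, 0 in HBE LIEA and 9 in Smart-seq2. Whether the authors' counting used the strand is not given in the sources used here.

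HOXA11, a gene of the uterus, kidney and limb, had no read in A549 LIEA, 2.29 rpkM (28 reads) in HBE LIEA and 3.64 (95 reads) in Smart-seq2. It was at least 8.42-fold higher in HBE by LIEA and the only HOXA gene absent from the A549 list. The promoters of HOXA6, HOXA7 and HOXA11 are shown as examples of called genes within one cluster, HOXA7 in the direction opposite to the others. HOXA2, HOXA3 and HOXA9 were called too, and their promoters are not shown. They are the 250 bases before the RefSeq start on GRCh38.p14, from 5′ to 3′ on the minus strand, at chr7:27147775-27148024, chr7:27156676-27156925 and chr7:27185233-27185482. Capitals mark CCAAT boxes (CCAAT) and GC boxes (GGGCGG) found on either strand, with overlapping matches joined.
HOXA6: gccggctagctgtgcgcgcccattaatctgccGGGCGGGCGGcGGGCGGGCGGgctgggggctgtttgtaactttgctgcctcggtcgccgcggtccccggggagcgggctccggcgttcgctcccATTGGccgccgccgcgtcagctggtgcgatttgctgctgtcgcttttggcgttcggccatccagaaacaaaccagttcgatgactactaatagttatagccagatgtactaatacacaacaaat
HOXA7: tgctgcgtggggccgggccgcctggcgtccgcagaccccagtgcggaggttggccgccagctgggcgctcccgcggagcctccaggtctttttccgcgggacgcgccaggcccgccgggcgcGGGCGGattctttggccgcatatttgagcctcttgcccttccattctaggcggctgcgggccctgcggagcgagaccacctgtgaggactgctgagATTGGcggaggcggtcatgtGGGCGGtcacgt
HOXA11: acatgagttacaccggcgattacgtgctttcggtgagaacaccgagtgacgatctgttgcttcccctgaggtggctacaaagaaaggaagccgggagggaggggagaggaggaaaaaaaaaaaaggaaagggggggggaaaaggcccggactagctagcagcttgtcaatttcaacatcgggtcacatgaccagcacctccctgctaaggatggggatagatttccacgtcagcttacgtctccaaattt

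The HOXA6 window has a GC content of 62%, 27 CpG and 5 matches, that of HOXA7 has 70.8%, 28 CpG and 3 matches, and that of HOXA11 has 51.6%, 11 CpG and none. The windows of HOXA6 and HOXA7 both held CCAAT and GC boxes. The part of these letters in the levels was not tested. RefSeq windows were at hand for 20 of the HOX genes, 27 windows in all. CCAAT was in 66.7% of these 27 and in 32% of all 35116 windows, and GGGCGG in 48.1% against 42.6%. The E-box CACGTG was in 29.6% against 6.34%, TATAAA in 18.5% against 10.7%, and TGATTNAT, a letter pattern bound by PBX and HOX together, in 7.41% against 2.48%. The nuclear receptor pattern AGGTCA was in 0% against 12.1%. A match is a description of letters, not a site in use.

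HOXA3, which shapes the thymus, parathyroid and neck, was the highest HOX gene of HBE LIEA. It had 16.9 rpkM (264 reads) there, 3.9 (55 reads) in A549 LIEA and 3.77 (126 reads) in Smart-seq2. A549 was 4.33-fold lower, with a log2 ratio of -2.11 (-2.56 to -1.69). HOXA2, a hindbrain and pharyngeal arch gene, had 0.542 rpkM (4 reads) in A549 LIEA, 2.81 (23 reads) in HBE LIEA and 1.14 (20 reads) in Smart-seq2, 5.19-fold lower in A549 with a log2 ratio of -2.37 (-4.37 to -0.83). For HOXA2, HOXA3, HOXA6 and HOXA9 the counting interval reached inside 4-fold.

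Other HOXA genes differed by less than 4-fold. HOXA5, needed for lung and trachea formation, had 1.16, 2.49 and 0.736 rpkM in A549 LIEA, HBE LIEA and Smart-seq2, with a log2 ratio of A549 to HBE of -1.10 (-2.50 to 0.16). HOXA10, a uterus and limb gene, had 3, 1.35 and 7.15 rpkM. By LIEA its level was higher in A549, with a log2 ratio of 1.15 (0.24 to 2.11), while its Smart-seq2 level in HBE was above both. HOXA13, the distal limb and genital gene, had 0.862 and 0.432 rpkM by LIEA and was unlisted in Smart-seq2. HOXA4 had 2, 7 and 1 reads.

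None of the 7 tested HOXC genes passed 4-fold between the lines. Of all genes tested, 11.0% were called higher in A549 and 7.50% higher in HBE, so most genes did not pass either. HOXC13, which drives hair and nail keratins, led the cluster in both LIEA libraries with 12.4 rpkM (123 reads) in A549 LIEA, 7.25 (80 reads) in HBE LIEA and 2.88 (68 reads) in Smart-seq2, a log2 ratio of A549 to HBE of 0.77 (0.35 to 1.19). HOXC10, a lumbar gene, had 3.56 rpkM (29 reads), 6.65 (60 reads) and 9.18 (177 reads), with a log2 ratio of -0.90 (-1.59 to -0.24). HOXC11 had 1.65, 1.6 and 0.798 rpkM, with a log2 ratio of 0.05 (-1.11 to 1.20). The interval of HOXC11 leaves room for a change of about 2-fold either way.

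HOXC4, HOXC6 and HOXC8, of the 3′ part of the cluster, stood higher in A549 LIEA without passing 4-fold. HOXC6 had 6.14 rpkM (53 reads) in A549 LIEA, 2.19 (21 reads) in HBE LIEA and 0.196 (4 reads) in Smart-seq2, with a log2 ratio of 1.48 (0.73 to 2.29). HOXC8 had 2.42, 0.759 and 0.311 rpkM, with a log2 ratio of 1.67 (0.46 to 3.04), and HOXC4 had 2.19, 0.753 and 0.22 rpkM, with 1.54 (0.31 to 2.93). HOXC9 had 4.06, 2.4 and 0.989 rpkM, with 0.76 (-0.17 to 1.74), and HOXC5 had 2, 5 and 8 reads. HOXC4 and HOXC6 share 484 exonic bases, 21% and 15.3% of each, so the split of reads between them is uncertain. Likewise HOXA9 and HOXA10 share 19.2% and 11.7% of their exonic bases with an annotated gene on the same strand that spans both.

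HOXD, the digit and limb cluster, was close to silent. HOXD8 was the only one of its genes quantified, at 1.96 rpkM in A549 LIEA and unlisted in HBE, at least 3.7-fold higher and so not past 4-fold. It has 10 reads under the most probable factor and 1 read as the smallest. HOXD9 had 3 reads in A549 LIEA, and HOXD3, HOXD10 and HOXD13 had 1 read each. HOXD1 had 1 read in HBE LIEA and HOXD3 had 1 in Smart-seq2. At this depth an HBE level below 0.651 reads per 1000000 by LIEA, or 0.305 by Smart-seq2, could not be told from 0.

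The comparison of LIEA with Smart-seq2 on HBE asks how the method bears on the same RNA. The sequencer differed with the method, so these cannot be told apart, and the HBE LIEA library is the same one used above. Of 16 HOX genes tested, 5 were called higher by LIEA, among them HOXA3, HOXA6, HOXA13 and HOXC6, while 14.9% of all 13519 genes tested were. Only HOXA10 was called higher by Smart-seq2, against 5.18% of all genes. The median log2 ratio of LIEA to Smart-seq2 was 1.29 over the 16 genes and 0.04 over all genes tested. It was 1.76 over 9 HOXA genes and 1.28 over 5 HOXC genes. At 2-fold, 11 were higher by LIEA (28.4% of all genes) and HOXA10 alone by Smart-seq2 (21.7%).

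HOXA3 had 264 reads by LIEA and 126 by Smart-seq2 in spite of the larger Smart-seq2 total. It gave 2.16 (1.85 to 2.48), HOXA6 gave 3.10 (1.95 to 4.42) and HOXC6 gave 3.49 (1.92 to 5.49), each as a log2 ratio of read shares. HOXA13 had 10 reads by LIEA and 0 by Smart-seq2, at least 7.13-fold higher, or 5 reads and at least 3.56-fold under the smallest whole number. In the other direction HOXA10 had 16 reads by LIEA and 181 by Smart-seq2, a log2 ratio of -2.40 (-3.24 to -1.67). Both directions therefore occurred within the HOXA cluster. Of these genes, only HOXA13 had its whole interval past 4-fold towards LIEA, against 10.1% of all genes, and 0 had it towards Smart-seq2, against 2.15%.

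The other 10 tested genes stayed within 4-fold. HOXA2, HOXA5, HOXA9, HOXC9, HOXC11 and HOXC13 had log2 ratios of LIEA to Smart-seq2 between 1.0 and 1.76. HOXA11 stood at -0.67 (-1.33 to -0.05), HOXB6 at -0.64 (-2.25 to 0.73), HOXB7 at -0.77 (-1.37 to -0.20) and HOXC10 at -0.46 (-0.91 to -0.03). The levels that Smart-seq2 gave for HBE bear on the line comparison. For HOXA3 and HOXA6 its 3.77 and 1.01 rpkM lay beside 3.9 and 0.9 rpkM in A549 LIEA. By contrast HOXA2, HOXA9 and HOXA11 were above A549 in both HBE libraries, and HOXA7 and the 8 called HOXB genes were below A549 in both. Method and line differ at once in values set across them, so no ratio is given.

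GC content moved with the method ratio. Over all genes with at least 10 reads in both libraries, the median log2 ratio of LIEA to Smart-seq2 rose from -0.71 in the lowest of 10 GC bins to 1.09 in the highest. The 16 HOX genes had a median GC of 53.1% (43.7% to 60.1%), above the 47.8% of all genes tested. Centred within its GC bin, HOXA3 fell to 1.53 and was no longer past 4-fold. HOXA6 stood at 2.35, HOXA13 at 2.96, HOXC6 at 2.99 and HOXA10 at -3.03, all still past it.

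**Figure D4:**
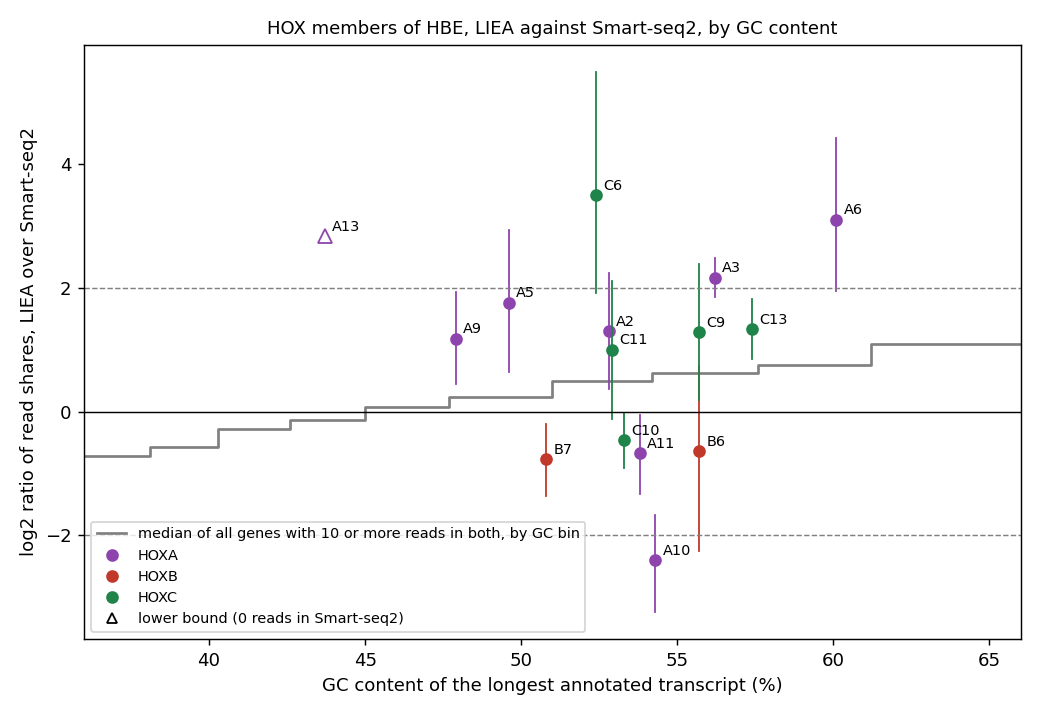
log2 ratio of read shares, LIEA over Smart-seq2 of HBE (vertical axis), against the GC content of the longest annotated transcript (horizontal axis), with 95% counting intervals for the tested HOX genes reported here; the grey steps are medians of all genes by GC bin. HOXA10 lies at -2.40 and HOXC6 at 3.49 although their GC contents are 54.3% and 52.4%.

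HOX proteins bind DNA with cofactors of the TALE homeodomain class, and 10 of 11 of these genes were listed. Of 9 tested between the lines, 2 were called higher in A549, among them MEIS3, and TGIF2 lower, beside 11.0% and 7.50% of all genes tested. The list median was -0.41. MEIS3 had 27.7 rpkM (83 reads) in A549 LIEA and 0.902 (3 reads) in HBE LIEA, with a log2 ratio of 4.94 (3.34 to 7.25). TGIF2, a repressor of TGF-β targets, had 1.47, 19.1 and 17.1 rpkM, 13-fold lower in A549 by LIEA. PBX2 differed by method, at 39.2 rpkM (580 reads) by LIEA and 0.632 (20 reads) by Smart-seq2, which is 62-fold.

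**Figure D5:**
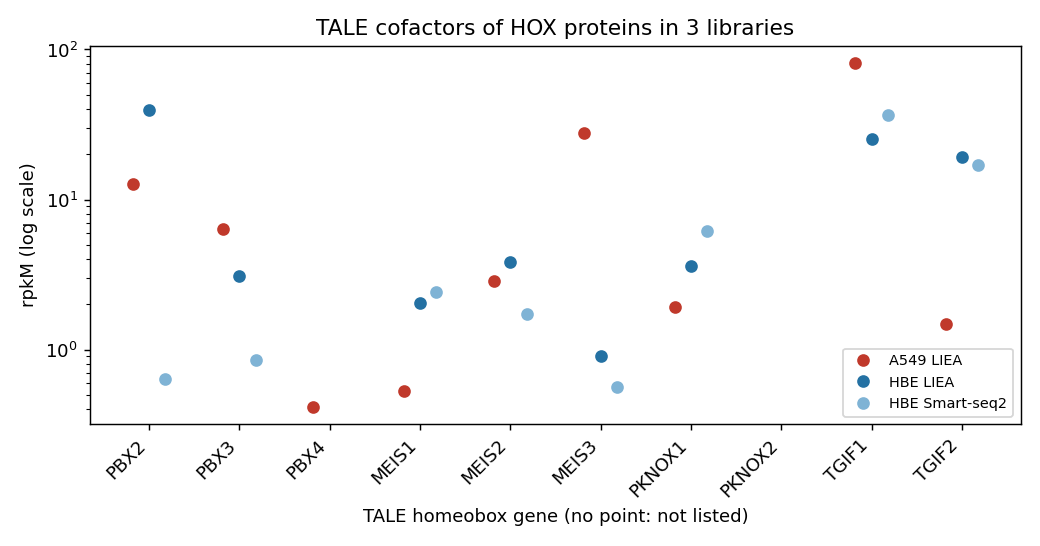
rpkM on a log scale (vertical axis) of the TALE homeobox genes reported here in the 3 libraries; no point means not listed. MEIS3 is at 27.7 rpkM in A549 LIEA and 0.902 in HBE LIEA, and TGIF2 at 1.47 and 19.1.

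Of 28 symbols of noncoding genes sought inside the clusters, 15 were listed in at least 1 library. HOTAIRM1, at the 3′ end of HOXA, had 3.23 rpkM in A549 LIEA, 20.6 in HBE LIEA and 32.8 in Smart-seq2, 6.38-fold lower in A549. HOXA11-AS had 0.622, 4.49 and 2.56 rpkM, 7.22-fold lower, and HOXA10-AS had 0, 9 and 35 reads. In HOXB, HOXB-AS1 had 8 reads and HOXB-AS3 had 10 reads in A549 LIEA and neither was listed in HBE. HOXB-AS3, at least 3.7-fold higher in A549, was not past 4-fold, and HOXB-AS1 and HOXA10-AS were under the read minimum. Elsewhere in HOXA, HOTTIP had 2 reads in A549 LIEA and 1 in HBE LIEA. Over the list, 4 genes had enough reads to be tested between the lines, of which 0 were called higher in A549 (11.0% of all genes) and 2 lower (7.50%). HOXC13-AS differed past 4-fold by method, with 2 reads by LIEA and 34 by Smart-seq2, a log2 ratio of -2.99 (-6.09 to -1.03). Exon overlap with an annotated gene on the opposite strand applied to 15 of the 39 HOX genes.

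Flanking genes were compared in the same way. Of 9 tested between the lines, TTLL6, a tubulin glutamylase gene beyond HOXB13, and CALCOCO1, beyond HOXC, were called, both higher in A549, where 11.0% of all genes were, and 0 were called higher in HBE (7.50%). TTLL6 had 104 reads (7.25 rpkM) in A549 LIEA and none in either HBE library, at least 38.4-fold higher. SKAP2 and HIBADH, on the HOXA flanks, had log2 ratios of A549 to HBE of -0.78 (-1.14 to -0.43) and -0.14 (-0.39 to 0.11).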

How the data were processed

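Total RNA was extracted with Trizol and about 10 pg of polyA+ mRNA entered each library. The authors mapped reads with FANSe2 (its release is not given in the sources used here) to RefSeq-RNA and merged splice variants. The values they deposited are log2 rpkM, without a pseudocount, for genes with reads. The labels name the hg19 build.

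rpkM was taken as the power of 2. The total of a library was taken as the highest integer for which over 70% of its 300 lowest genes had transcript lengths in whole bases. For each gene a whole factor common to reads and length stays unknown and was set to the most probable from 1 to 60 given GENCODE 44 transcript lengths on GRCh37. It was above 1 for 1147 of 18856 genes, 94% of which matched the annotation. Reads came out whole for 100% of genes and summed to 97.31% to 97.58% of the totals. This recovery was worked out with the data in view and was tested on simulated data. In each library 4 rows with date-like names were left out, and 1589 blank rows in the Smart-seq2 table.

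Ratios of read shares have exact conditional binomial 95% intervals, rpkM exact Poisson intervals and cluster sums gamma intervals. No test across samples was possible with 1 library per condition. Reads of near-identical stretches shared by paralogs could be split in mapping, so levels of close paralogs are uncertain to that extent. The members and lists were chosen with earlier results of these data known. Counts cover every member, and values were given for members with at least 10 reads in any library, except that some genes are not reported here, most fully for the 3 highest per library and those past 4-fold. Alternatives changed the read minimum, fold, scaling, floor, counting error, GC centring, depth and unit. Computation was in Python 3.11.15 with scipy 1.17.1, numpy 2.4.6 and pandas 2.3.3, and plots in matplotlib 3.10.9.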

Additional observations from a re-analysis of the deposited data

How the results depend on the processing

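No paired analysis was possible because there was a single library for each condition and no result comes from a test, and for the same reason no replicate could be left out. Of 65 values computed under alternatives, 41 were classed as unchanged and 24 as moved, with wide limits for counts. A fall from 15 to 10 quantified HOX genes in HBE LIEA, at a minimum of 20 reads, was classed as unchanged. The tally therefore does not measure robustness. Counting every listed gene gave 32, 24 and 21 HOX genes in A549 LIEA, HBE LIEA and Smart-seq2. A 2-fold criterion gave 14 genes higher in A549 (20.4% of all genes tested) and 11 higher by LIEA than by Smart-seq2 (28.4%). On log2(rpkM + 1), which compresses low genes, 9 genes were higher in A549 and 1 higher in HBE, with 1 higher by LIEA and 0 by Smart-seq2. With the counting interval wholly past 4-fold, 1 was higher in HBE (4.59% of all genes) and 8 higher in A549 (6.76%). By method, 1 was higher by LIEA (10.1%) and 0 by Smart-seq2 (2.15%). Among the 8, the intervals of HOXB2, HOXB6 and HOXB13 use reads under the most probable factor (probability 50.2%, 76.2% and 26%). Their smallest whole reads in A549 LIEA were 11, 49 and 1, for which no interval is given. Rescaling rpkM to TPM moved every HOXA, HOXB and HOXC sum and, in A549, the HOXD sum: HOXA 36.8, 107 and 41.4, HOXB 185, 14.7 and 21.1, and HOXC 69.7, 53 and 31.3 TPM in A549 LIEA, HBE LIEA and Smart-seq2, and HOXD 5.72 TPM in A549. TPM multiplies all genes of a library by the same constant. These moves are thus a change of unit, and the cluster shares within a library stay the same. With only genes of at least 10 reads, the HOXA sum of A549 LIEA was 14 rpkM and the HOXD sums of both HBE libraries were 0. Taking the smallest whole reads, chosen after seeing the data, gave 8 genes higher in A549, 5 higher in HBE, 4 higher by LIEA and 1 by Smart-seq2. Centring on the median ratio gave 10, 4, 5 and 1. For log2(rpkM + 1), the smallest whole reads and this centring, no share over all genes is at hand to set beside the counts. Smart-seq2 thinned to the LIEA total quantified 8.92 HOX genes on average over 100 draws, against 13.

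Depth limits most of these values: the libraries held 1168, 752 and 939 HOX reads, and many members lie under 10. Differences between the lines cannot be told apart from differences between these 2 libraries.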

Other observations

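Regulators of the HOX clusters were widely listed, with all 16 Polycomb genes sought in at least 1 library. Of 15 Polycomb genes tested between the lines by LIEA, 0 passed 4-fold either way (11.0% of all genes were called higher in A549 and 7.50% higher in HBE), with a median log2 ratio of A549 to HBE of 0.04. EZH2, the histone methyltransferase of the complex, had 11.4 rpkM in A549 LIEA, 22 in HBE LIEA and 17 in Smart-seq2. Of 8 Trithorax genes and demethylases, 0 passed 4-fold, and their median was -1.08. KMT2A, the methyltransferase that maintains HOX expression, had 5.76 rpkM in A549 LIEA and 13.7 in HBE LIEA, a log2 ratio of -1.25 (-1.42 to -1.09), and MEN1, its partner, gave -1.25 (-1.47 to -1.03).

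Of 9 tested genes in a list of signals known to act on HOX genes, 2 were called higher in A549 (11.0% of all genes) and 0 higher in HBE (7.50%). RARB, a retinoic acid receptor, had 6.15 rpkM (80 reads) in A549 LIEA, 0.0693 (1 read) in HBE LIEA and 0.324 (10 reads) in Smart-seq2. Its log2 ratio of A549 to HBE was 6.47 (3.95 to 11.79). CYP26A1, which degrades retinoic acid, had 19 reads in A549 LIEA, 4 in HBE LIEA and 7 in Smart-seq2, which gives 2.40 (0.81 to 4.41). RARG had 12.8 and 43.5 rpkM in A549 LIEA and HBE LIEA, a log2 ratio of -1.76 (-2.03 to -1.51), and RXRA had 14.4 and 57.3 rpkM, 3.99-fold lower in A549. CDX2, a gut transcription factor that acts on HOX genes, had 7 reads in A549 LIEA and 0 in HBE. By method, 5 Polycomb genes (RING1, PCGF2, CBX7, PHC1 and PHC2), 2 of the Trithorax list (KMT2A and KDM6B) and 4 of the upstream list (RXRA, RXRB, CYP26B1 and CTCF) were called higher by LIEA than by Smart-seq2 (14.9% of all genes were) and 0 lower (5.18%). PCGF2 had 112 reads by LIEA and 0 by Smart-seq2, at least 79.8-fold higher.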
